A study of Mus musculus with 12 samples.

Results

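The genes described here are 37 genes of the ATF4 and amino acid response, matched by gene name among the 24503 gene identifiers of the deposited tables. Each of the 37 was listed in all 8 tables. They comprise 7 transcription factors, 9 regulators and secreted or surface proteins, 10 enzymes of amino acid and one-carbon metabolism, 6 amino acid transporter subunits and 5 tRNA synthetases. In the wild-type islets 36 of them passed the filter on low counts, with Fgf21 left out, and in the ChR2 islets all 37 did.

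ATF4 is a bZIP transcription factor whose mRNA is translated more efficiently when the initiation factor eIF2α is phosphorylated. The eIF2α kinases respond to amino acid shortage, to unfolded proteins in the endoplasmic reticulum, to viral double-stranded RNA and to lack of haem. With C/EBP family partners ATF4 binds C/EBP-ATF response elements in genes for amino acid synthesis, import and tRNA charging, and with DDIT3 (also called CHOP) it acts on genes of stress recovery and cell death. In β cells, which make large amounts of insulin, this pathway is known from endoplasmic reticulum stress and from diabetes models. Because ATF4 is controlled largely at translation, the amount of Atf4 mRNA is a partial readout of the factor.

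Total RNA of mouse islets, isolated with collagenase, was sequenced to compare transcripts under altered electrical activity. The islets came from C57BL/6 mice, with 2 mice in each of 6 groups and 12 libraries in all. Wild-type islets received 11 mM glucose for 4 h with the calcineurin inhibitor FK506 (11G+FK), the same glucose and time with diazoxide, an opener of ATP-sensitive potassium channels that keeps the membrane hyperpolarized (11G+D), 11 mM glucose for 4 h alone (11G), or low glucose (2G). Islets with channelrhodopsin-2 (ChR2), a light-opened cation channel, in their β cells were kept under light for 40 min, with 5 min of dark in each cycle, or without light. The labels call the 2G and the unlit islets untreated and give no time for either, no concentration in mM for 2G and no glucose concentration for the ChR2 islets. Glucose and incubation cannot be told apart in any comparison with 2G. The labels and tables used here name neither the promoter that places ChR2 in the β cells nor the doses of diazoxide and FK506. The mouse numbers of the wild-type and ChR2 islets name different animals.

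The libraries held 15196061 to 22892255 counts assigned to genes. Levels are given as CPM, counts normalized to library size with TMM factors, for mice 1 and 2 in that order, and the 2 genotypes were scaled apart. All 8 β cell markers examined had reads in every library, with summed levels of 70934 to 121489 CPM in wild-type islets. The 20 acinar markers found in the tables, genes of the exocrine pancreas, had summed levels of 140 and 584 CPM in 11G islets, 268 and 462 CPM in 11G+D islets, 155 and 529 CPM in 11G+FK islets and 674 and 1254 CPM in 2G islets. Of these markers Ctrc, Amy2b and Rbpjl were at 0 in some libraries.

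The C/EBP-ATF response element core was searched in RefSeq promoters because it is the sequence through which ATF4 is known to act on several of these genes. The core was written as TGATGNAA, with N for any base, and was read on both strands, so that matches on the other strand appear as TTNCATCA. Each promoter window ran from 250 bases before to 50 bases after the RefSeq start on build GRCm38.p6. Of the 37 genes, 31 were in the promoter table and 11 of those (35.5%) held the core, while 4.51% of the 27025 genes of the table did. By window, 3.97% of 32851 held it. The 11 were Aars, Asns, Atf3, Chac1, Fgf21, Gars, Nupr1, Pck2, Slc7a11, Trib3 and Vldlr. Aars and Slc7a11 held it at 2 positions each. The genes Cth, Slc7a3, Slc7a5, Nars, Eif4ebp1 and Wars had no entry in the table. The matches of genes that the results below turn on are shown with their flanks, in the direction of transcription, with the core in capitals.
Asns, chr6:7693205-7693252, minus strand, 23 bases before the start: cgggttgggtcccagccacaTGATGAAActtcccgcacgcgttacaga
Chac1, chr2:119351029-119351076, plus strand, 193 bases before the start: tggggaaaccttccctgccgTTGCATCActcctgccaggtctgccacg
Nupr1, chr7:126625553-126625600, minus strand, 110 bases before the start: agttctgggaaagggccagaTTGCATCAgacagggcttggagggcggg
Aars, chr8:111033710-111033757, plus strand, 112 bases before the start: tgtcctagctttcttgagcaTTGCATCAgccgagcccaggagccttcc
Gars, chr6:55037951-55037998, plus strand, 30 bases before the start: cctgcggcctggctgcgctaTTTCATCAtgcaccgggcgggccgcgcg
Atf3, chr1:191183416-191183463, minus strand, 110 bases before the start: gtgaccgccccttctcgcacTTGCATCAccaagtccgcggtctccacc
Vldlr, chr19:27216800-27216847, plus strand, 200 bases before the start: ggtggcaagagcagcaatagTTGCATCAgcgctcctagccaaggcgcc
Trib3, chr2:152344029-152344056, minus strand, from base 15 after the start: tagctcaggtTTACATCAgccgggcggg
Read as the motif, the copies shown from Chac1, Nupr1, Aars, Atf3 and Vldlr all had the letters TGATGCAA, those in Asns and Gars had TGATGAAA, and the one in Trib3 had TGATGTAA. A match is a description of these letters, not a measured binding site.

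Per gene length, the genes spanned a wide range in wild-type islets. By the FPKM values the authors deposited, a level scaled by gene length and library size, Ddit3 was the highest with a mean of 374 FPKM over the 8 wild-type libraries, followed by Atf5 with 303, Atf4 with 269 and Nupr1 with 204. Asns averaged 114 FPKM, Trib3 83.2 and Chac1 45.7. Stc2 (2.10), Cth (1.64) and Fgf21 (0.407) were the lowest. In absolute terms Ddit3 spanned the widest range, from 148 to 704 FPKM (lowest and highest wild-type library). The low gene Cth ran from 0.326 to 3.10 FPKM, a wider range by fold, while Wars ran from 43.8 to 57.8 FPKM. The tables place Ddit3 (ENSMUSG00000025408) on chromosome 10 from 127290774 to 127296288, Trib3 (ENSMUSG00000032715) on chromosome 2 from 152337422 to 152344032, Chac1 (ENSMUSG00000027313) on chromosome 2 from 119351229 to 119354381, Nupr1 (ENSMUSG00000030717) on chromosome 7 from 126623249 to 126630861 and Atf4 (ENSMUSG00000042406) on chromosome 15 from 80255184 to 80257540, with no build named. Some gene bodies overlap a neighbour on the opposite strand, such as Ddit3 with Mars over 68 bases, Atf5 with Nup62 over 571, Cebpb with Tmem189 over 908 and Ppp1r15a with Tulp2 over 717. Whether counting used strand is not stated in those sources, so reads of such pairs cannot be told apart where they overlap.

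Across the 4 wild-type groups the summed level of the genes took the same order in both mice, which single genes did not all follow. Summed over all 37, their level was 4768 and 5668 CPM in 11G+D islets, 6910 and 8693 CPM in 11G+FK islets, 5888 and 7102 CPM in 11G islets and 8038 and 9999 CPM in 2G islets. Mouse 2 was the higher in every group. Of the 36 genes tested, 21 (58.3%) had their lowest level of the 4 groups in 11G+D in both mice, a pattern found in 11.2% of all genes. Of the same 36 genes, 17 (47.2%) had their highest level in 2G in both mice, against 13.3% of all genes. These 2 sets overlap, with Atf4, Trib3 and Asns among the genes in both. Only Cth was lowest and only Vldlr highest at 11G in both mice, and Slc7a3 and Aldh18a1 were highest with FK506, while none was lowest there. Of all genes 8.44% were lowest and 10.6% highest at 11G, and 7.4% were lowest and 8.66% highest with FK506. These counts describe an order of levels and are not tests.

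**Figure D1:**
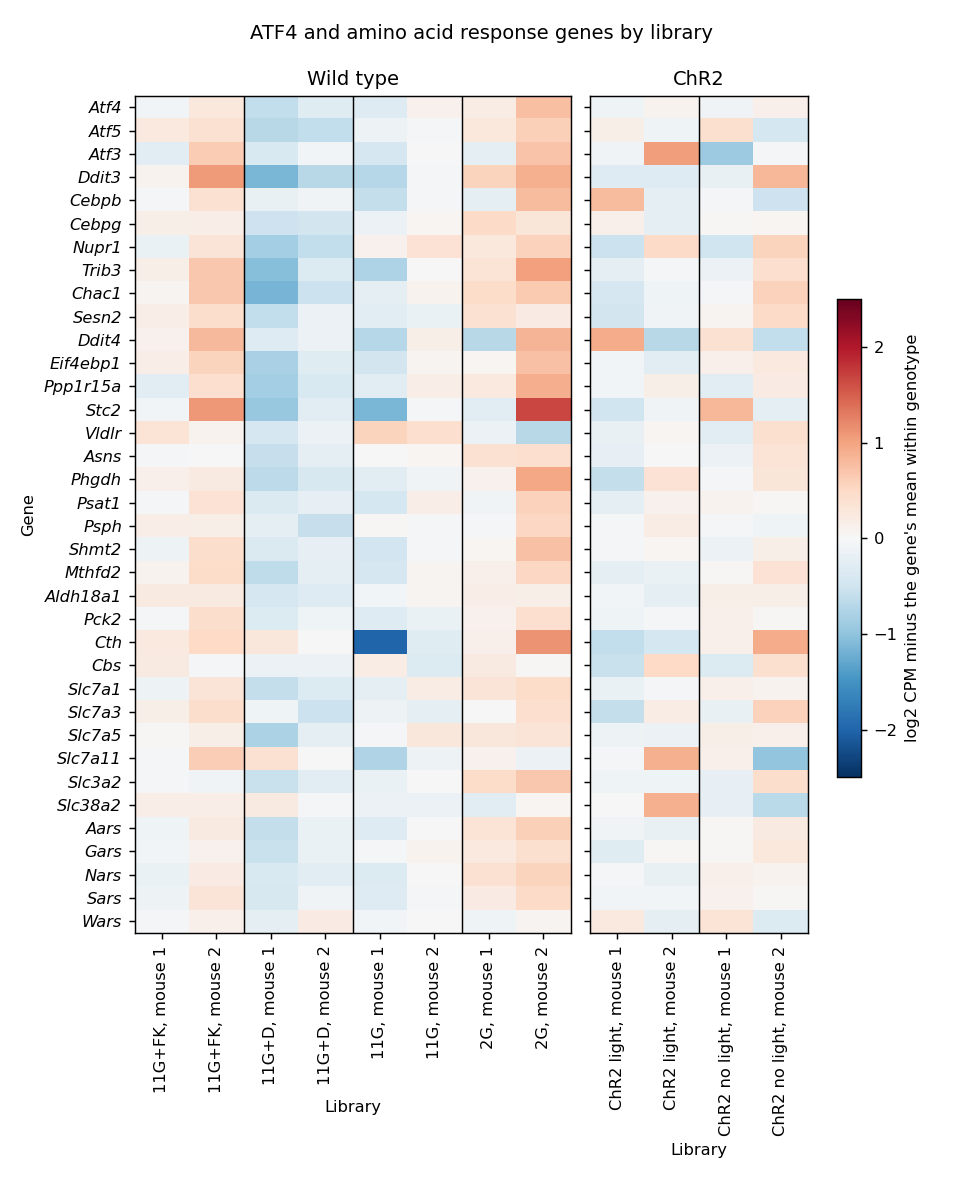
Level of each gene (rows, ordered by role) in each library (columns), as log2 CPM minus the gene's mean over the libraries of the same genotype, with the color scale from blue (lower) to red (higher); Fgf21 is left out. The 11G+D columns are blue for most genes and the 2G columns red, while in ChR2 islets light and no light share no such split.

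The first comparison set 11G against 2G. In 11G islets 9 of the 36 genes fell and 1 rose, where 1.71% of all 16087 genes tested fell and 3.13% rose. At an unadjusted p under 0.05, 24 were lower and 1 higher, where 3717 of all 16087 genes passed in either direction. Log2 changes were negative for 35 of 36 and negative in both mice for 31 (86.1% of them, against 32.9% of all genes). The median was -0.50, while that of all genes was -0.01, and it was -0.47 in mouse 1 and -0.57 in mouse 2. Fewer cells of a type and less RNA per cell cannot be told apart in these bulk libraries.

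Among the transcription factors 1 of 7 fell. Ddit3, a stress-induced C/EBP family factor, had 191 and 305 CPM in 11G islets, against 464 and 586 CPM in 2G islets. The level was lower in both mice, with a log2 change of -1.11 ± 0.18 (standard error of the edgeR fit, n = 2 mice, adjusted p = 0.0116 by edgeR's quasi-likelihood test, Benjamini-Hochberg over all genes). Atf4 itself had 354 and 476 CPM in 11G islets, against 508 and 747 CPM in 2G islets, a log2 change of -0.59 ± 0.16 that did not pass the test (edgeR adjusted p = 0.0622). It was lower in both mice, by -0.52 and -0.65. The other factors, Atf5, Atf3, Cebpb, Cebpg and the stress-induced chromatin protein Nupr1, had log2 changes of -0.63 to -0.20, all negative in both mice and none past the test.

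Regulators and secreted or surface proteins held most of the calls, with 5 of 8 lower and 1 higher. Trib3, a pseudokinase that binds AKT and ATF4, had 88.7 and 150 CPM in 11G islets, against 192 and 307 CPM in 2G islets. Its log2 change was -1.07 ± 0.14 (edgeR adjusted p = 0.0045), with -1.11 and -1.04 in the 2 mice. Chac1, which degrades glutathione and was counted here rather than among the enzymes, had 58.4 and 72.9 CPM in 11G islets, against 94.4 and 109 CPM in 2G islets. Ppp1r15a, the GADD34 subunit that directs eIF2α dephosphorylation, had 145 and 194 CPM in 11G islets, against 205 and 326 CPM in 2G islets. Eif4ebp1, a repressor of cap-dependent translation, had 80.4 and 116 CPM in 11G islets, against 115 and 185 CPM in 2G islets. Each of these 3 genes was lower in both mice, although for Eif4ebp1 the groups overlapped slightly between mice, with 116 CPM in mouse 2 at 11G and 115 CPM in mouse 1 at 2G. Log2 changes were -0.64 ± 0.15 for Chac1, -0.62 ± 0.15 for Ppp1r15a and -0.59 ± 0.14 for Eif4ebp1, with edgeR adjusted p-values of 0.0461, 0.0411 and 0.0422.

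Stc2, a secreted glycoprotein, was expressed at a low level. It had 3.04 and 6.58 CPM in 11G islets, against 5.54 and 21.4 CPM in 2G islets, so that the groups overlapped between mice. The log2 change was -1.35 ± 0.30 (edgeR adjusted p = 0.0361), and it was -0.80 without 2G mouse 2, which had the highest level. Vldlr, the receptor for very low density lipoprotein, was the 1 gene that rose. It had 187 and 170 CPM in 11G islets, against 115 and 79.0 CPM in 2G islets, with a log2 change of 0.89 ± 0.19 (edgeR adjusted p = 0.0294).

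Of the 10 enzymes all had a negative log2 change and 1 passed. Shmt2, the mitochondrial serine hydroxymethyltransferase, had 84 and 113 CPM in 11G islets, against 120 and 193 CPM in 2G islets, a log2 change of -0.65 ± 0.16 (edgeR adjusted p = 0.0479). Asns, the asparagine synthetase and a textbook ATF4 target, had 228 and 233 CPM in 11G islets, against 292 and 302 CPM in 2G islets. The change of -0.37 ± 0.15 did not pass the test (edgeR adjusted p = 0.186). Phgdh, the first enzyme of serine synthesis, was close to the threshold at -0.75 ± 0.19 (edgeR adjusted p = 0.0518), and at -0.39 without 2G mouse 2. Cth, the cystathionine γ-lyase that makes cysteine, had the largest log2 change of all, -1.66 ± 0.46, and did not pass (edgeR adjusted p = 0.066). Its levels were 0.638 and 2.09 CPM in 11G islets, against 2.82 and 5.61 CPM in 2G islets.

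Transporters and tRNA synthetases each had 1 gene past the test. Slc3a2, the heavy chain that pairs with several amino acid carriers at the membrane, had 311 and 344 CPM in 11G islets, against 475 and 558 CPM in 2G islets, a log2 change of -0.65 ± 0.16 (edgeR adjusted p = 0.044). Its light-chain partner Slc7a5, a carrier of large neutral amino acids, had a log2 change of -0.19 ± 0.17 that did not pass. Nars, the asparaginyl-tRNA synthetase, had 210.5 and 266 CPM in 11G islets, against 348 and 390.5 CPM in 2G islets, a log2 change of -0.64 ± 0.15 (edgeR adjusted p = 0.0422). Aars, the alanyl-tRNA synthetase, stood just outside the threshold at -0.62 ± 0.15 (edgeR adjusted p = 0.05004). Sars was at -0.53 ± 0.16 and Gars at -0.29 ± 0.15, while Wars, the tryptophanyl-tRNA synthetase, was at -0.01 ± 0.14.

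The calls of this comparison were sensitive to the design. Without the mouse as a block 54 of all 16087 genes rose and 14 fell, and 0 of the 36 genes passed (15 lower and 1 higher at an unadjusted p under 0.05). DESeq2 with the block called 708 of the 14235 genes it tested higher and 578 lower. Of the 36 genes it gave 18 lower and 1 higher. None of the 10 calls held whichever library was left out. Calls among all genes also became fewer without either 11G library. The median stayed between -0.57 and -0.48 over these and the other alternatives. Beside this comparison 11 of 17 acinar markers tested fell, as did 1 of 7 ductal (Krt7) and 1 of 7 stellate markers (Acta2). Of 8 β cell markers 2 rose (Pdx1 and G6pc2, median of the 8 at 0.53), as did 1 of 5 δ and PP cell markers (Sst). The part of these markers in the result was not tested.

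**Figure D2:**
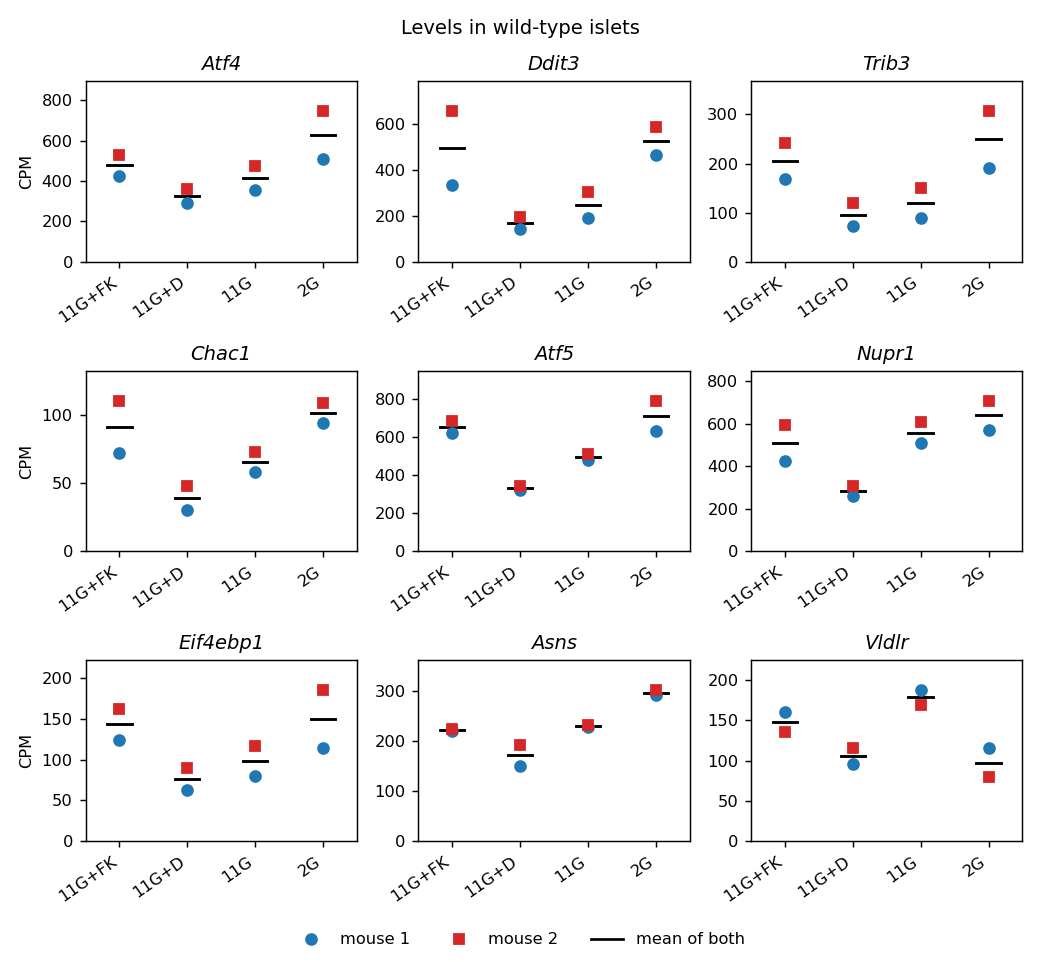
CPM (vertical axes, from 0) of 9 of the genes in wild-type islets, by group on the horizontal axis, with a circle for mouse 1, a square for mouse 2 and a line for their mean. Levels of 8 genes are lowest in 11G+D in both mice, and Vldlr is highest at 11G.

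Other genes of the pathway did not all follow this direction. Of 9 genes of eIF2 kinases and phosphatase regulation 2 rose in 11G, Eif2ak2 (PKR, log2 change 0.82 ± 0.16) and Eif2ak4 (GCN2, 0.69 ± 0.15), with edgeR adjusted p-values of 0.0203 and 0.036. None of 5 eIF2B subunits and none of 17 mitochondrial tRNA synthetases passed. All 15 further cytosolic tRNA synthetases had a negative log2 change, with a median of -0.36, and 1 of them passed, Rars at -0.64 ± 0.13. Among 15 further amino acid transporters 3 rose. Slc38a4, a carrier of neutral amino acids, had 712 and 440 CPM in 11G islets, against 179 and 87.2 CPM in 2G islets, a log2 change of 2.16 ± 0.23 (edgeR adjusted p = 0.00157). The others were Slc36a4 at 1.47 ± 0.21 and Slc7a6 at 0.85 ± 0.17. Of 18 further enzymes Gpt2, a mitochondrial alanine aminotransferase, fell by 0.98 ± 0.14 on the log2 scale. Trib1, a relative of Trib3, rose by 1.16 ± 0.26, and Sesn3, a relative of Sesn2, fell by 0.95 ± 0.23. Without 2G mouse 1 these values were 0.69 and -0.58, and neither passed. Over all comparisons 34 calls were made among these further genes, all 34 ended without the mouse block, and 5 held whichever library was left out, among them Slc38a4 here.

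The second comparison set 11G+D against 11G. With diazoxide 2 of the 36 genes fell and 0 rose, where 2.46% of all genes tested fell and 1.33% rose. At an unadjusted p under 0.05, 13 were lower and 2 higher, where 3003 of all 16087 genes passed in either direction. DESeq2 gave 6 lower and 0 higher, where 559 of the 14235 genes it tested fell and 341 rose. A negative log2 change was found in 29 of 36, and it was negative in both mice for 22 (61.1%, against 32.3% of all genes). The median was -0.28, against 0.00 in all genes, and was -0.30 and -0.29 in the 2 mice.

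Nupr1 had 261 and 307 CPM in 11G+D islets, against 508 and 606 CPM in 11G islets. The log2 change of -0.97 ± 0.16 (edgeR adjusted p = 0.0117) was nearly equal in the mice, at -0.96 and -0.98. Chac1 had 30.6 and 47.8 CPM in 11G+D islets, against 58.4 and 72.9 CPM in 11G islets, a log2 change of -0.77 ± 0.16 (edgeR adjusted p = 0.0297). Vldlr, the gene that rose in 11G, had 95.7 and 115 CPM in 11G+D islets, against 187 and 170 CPM in 11G islets, and its change of -0.75 ± 0.19 did not pass (edgeR adjusted p = 0.0578). Slc7a5 was at -0.63 ± 0.17, Atf5 at -0.57 ± 0.16 and Ppp1r15a at -0.57 ± 0.15, with edgeR adjusted p-values of 0.073, 0.0864 and 0.0668.

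Ddit3 and Trib3, which fell in 11G against 2G, did not pass here. Ddit3 had 142 and 194 CPM in 11G+D islets, against 191 and 305 CPM in 11G islets, a log2 change of -0.54 ± 0.18 that did not pass (edgeR adjusted p = 0.145). Trib3 had 71.9 and 120 CPM in 11G+D islets, against 88.7 and 150 CPM in 11G islets, and Atf4 had 289 and 360 CPM, against 354 and 476 CPM. Trib3 and Atf4 were at -0.31 ± 0.14 and -0.35 ± 0.16. Asns had 151 and 192 CPM in 11G+D islets, against 228 and 233 CPM in 11G islets, and was at -0.43 ± 0.15 (edgeR adjusted p = 0.155). The largest value was that of Cth, 1.22 ± 0.47, with 3.15 and 2.60 CPM in 11G+D islets, against 0.638 and 2.09 CPM in 11G islets, and it did not pass (edgeR adjusted p = 0.197).

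Without the mouse block 9 of all 16087 genes rose and 50 fell, and 0 of the 36 genes passed (8 lower and 0 higher at an unadjusted p under 0.05). Neither of the 2 calls held whichever library was left out, and calls among all genes also became fewer without either 11G library. In the 4 fits that left out a library of these groups, Nupr1 stayed between -1.03 and -0.91 and Chac1 between -0.90 and -0.64. None of the 17 acinar markers tested passed in this comparison, and 1 of 8 β cell markers fell (G6pc2), whose part was not tested. Of the other pathway genes, Slc36a4 (-1.13 ± 0.21) and Pycr1, of proline synthesis (-0.85 ± 0.17), fell and Hars2 (0.63 ± 0.15), a mitochondrial histidyl-tRNA synthetase, rose. Slc36a4 was at -0.75 and did not pass without 11G+D mouse 1.

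The third comparison set 11G+FK against 11G. None of the 36 genes passed by edgeR, where 0.0124% of all genes tested rose and 0.218% fell. At an unadjusted p under 0.05, 14 were higher and 0 lower, where 1735 of all 16087 genes passed in either direction. DESeq2 gave 2 higher, Trib3 and Ddit3, where 54 of the 12841 genes it tested rose and 170 fell. The log2 change was positive for 31 of 36, and positive in both mice for 29 (80.6%, against 34.7% of all genes). The median was 0.30, against 0.01 in all genes, with 0.28 and 0.31 in the 2 mice.

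Trib3 had 168 and 243 CPM in 11G+FK islets, against 88.7 and 150 CPM in 11G islets. The log2 change of 0.81 ± 0.14 was close to the threshold (edgeR adjusted p = 0.0676). Ddit3 had 335 and 656 CPM in 11G+FK islets, against 191 and 305 CPM in 11G islets, a log2 change of 0.97 ± 0.18 (edgeR adjusted p = 0.0776). Mouse 2 gave the larger difference, 1.11, and mouse 1 gave 0.81. Cth, with 3.03 and 3.64 CPM in 11G+FK islets, against 0.638 and 2.09 CPM in 11G islets, and Stc2, with 6.40 and 14.3 CPM, against 3.04 and 6.58 CPM, had the largest values, 1.38 ± 0.47 and 1.10 ± 0.30, and neither passed.

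Not all genes shared this direction. Asns had 221 and 224 CPM in 11G+FK islets, against 228 and 233 CPM in 11G islets, a log2 change of -0.05 ± 0.15. Atf4 was at 0.21 ± 0.16, with 426 and 531 CPM in 11G+FK islets, against 354 and 476 CPM in 11G islets. Slc3a2 (0.03 ± 0.16), Slc7a5 (-0.02 ± 0.17), Gars (-0.01 ± 0.15) and Nupr1 (-0.14 ± 0.16) were near 0, and Chac1 was at 0.46 ± 0.15. Among the other pathway genes Slc38a4 fell by 1.46 ± 0.22 on the log2 scale, to 283 and 144 CPM in 11G+FK islets, against 712 and 440 CPM in 11G islets (edgeR adjusted p = 0.0323). All 9 genes of eIF2 kinases and phosphatase regulation had a negative log2 change and none passed, with a median of -0.19. The acinar markers had 0 of 17 past the test, and 1 of 8 β cell markers fell (G6pc2), whose part was not tested.

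**Figure D3:**
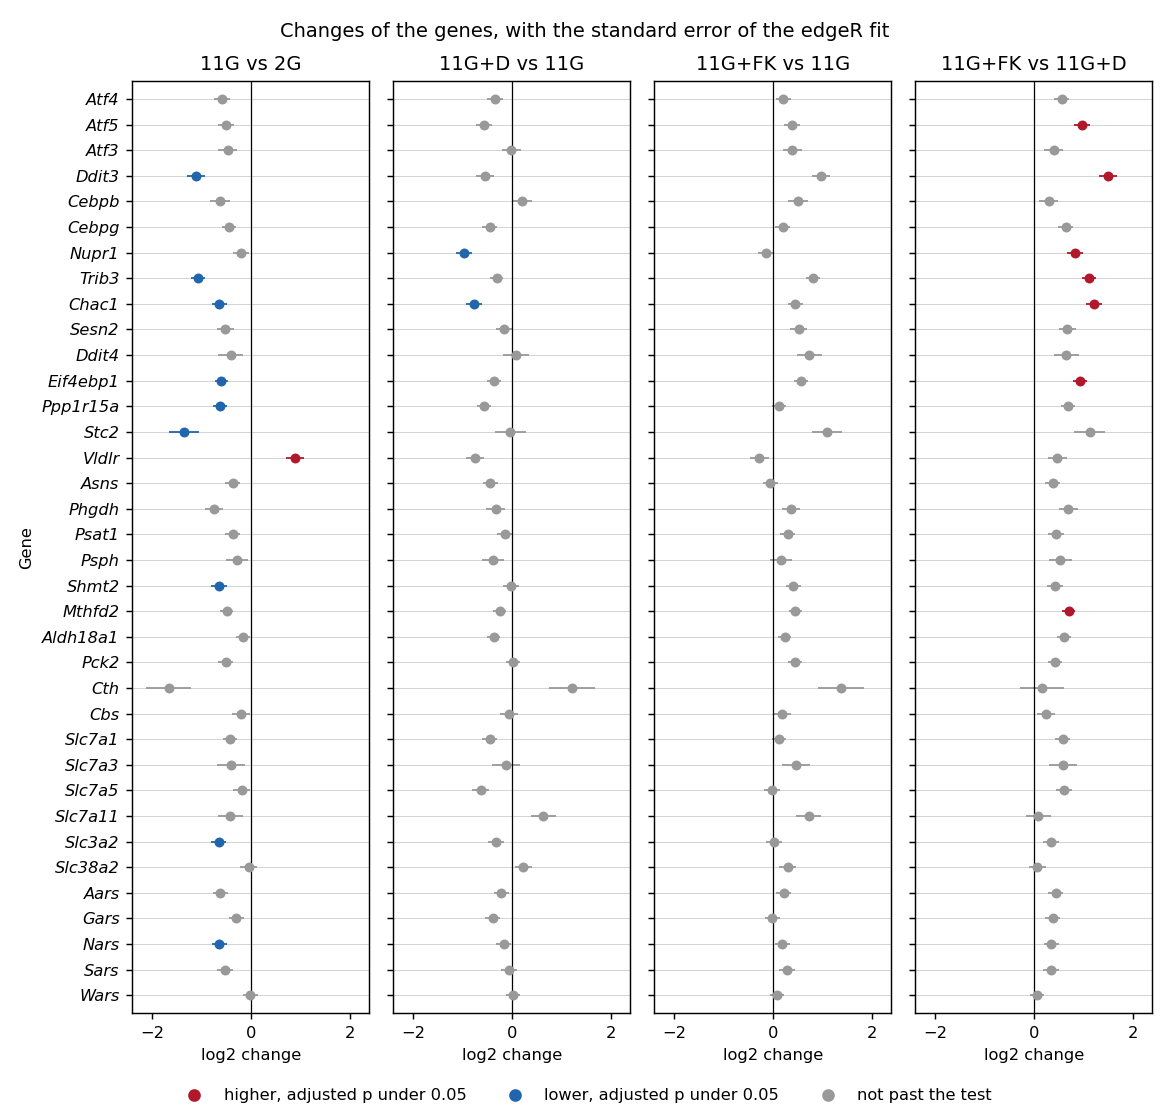
Log2 change (horizontal axes) of each of the 36 genes tested, with bars for the standard error of the edgeR fit, in 4 comparisons of wild-type islets; blue and red mark genes lower and higher at an adjusted p under 0.05. Values lie left of 0 for 35 genes in 11G against 2G, left for 29 with diazoxide, right for 31 with FK506, and right for all 36 in 11G+FK against 11G+D.

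The 2 agents were next set against each other at the same glucose and time. In 11G+FK 7 of the 36 genes rose relative to 11G+D and 0 fell, where 0.783% of all genes tested rose and 0.385% fell. At an unadjusted p under 0.05, 26 were higher and 0 lower, where 2633 of all 16087 genes passed in either direction. DESeq2 gave 14 higher and 0 lower, where 290 of the 14699 genes it tested rose and 191 fell. The log2 change was positive for all 36 genes, and positive in both mice for 32 (88.9%, against 31.3% of all genes). It was negative in both mice for 0, against 30.2% of all genes. The median was 0.55, against -0.002 in all genes. Ddit3 had 335 and 656 CPM in 11G+FK islets, against 142 and 194 CPM in 11G+D islets, a log2 change of 1.51 ± 0.19 (edgeR adjusted p = 0.00933). Chac1 had 72.2 and 111 CPM in 11G+FK islets, against 30.6 and 47.8 CPM in 11G+D islets, a log2 change of 1.22 ± 0.16 (edgeR adjusted p = 0.0103). Trib3 had 168 and 243 CPM in 11G+FK islets, against 71.9 and 120 CPM in 11G+D islets, a log2 change of 1.12 ± 0.14 (edgeR adjusted p = 0.00957). In these 3 genes every 11G+FK library was above both 11G+D libraries, and the share of all genes with such a separation was not counted.

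The other 4 that rose were Atf5 (0.97 ± 0.16), a bZIP factor related to ATF4, Eif4ebp1 (0.92 ± 0.14), Nupr1 (0.83 ± 0.16) and Mthfd2 (0.71 ± 0.14), a mitochondrial folate enzyme. Atf4 was at 0.56 ± 0.16 and did not pass (edgeR adjusted p = 0.129), nor did Asns at 0.38 ± 0.15 (edgeR adjusted p = 0.25). Without the mouse block 4 of all 16087 genes rose and 1 fell, and 0 of the 36 genes passed (13 higher and 0 lower at an unadjusted p under 0.05). None of the 7 calls held whichever library was left out, and calls among all genes also became fewer without either 11G+FK library. The median of the 36 genes stayed between 0.50 and 0.62 in those fits. Gpt2 (0.88 ± 0.14) and Pycr1 (0.93 ± 0.17) rose among the other enzymes, and none of the 17 acinar markers passed. Of these markers 16 had a negative log2 change and 1 a positive one. Their median was -1.03 in mouse 1 and 0.20 in mouse 2, and their part was not tested.

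Islets given diazoxide or FK506 were also set against 2G. In 11G+D 20 of the 36 genes fell and 0 rose, where 2.31% of all genes tested fell and 2.92% rose. At an unadjusted p under 0.05, 27 were lower and 0 higher, where 3660 of all 16087 genes passed in either direction. DESeq2 gave 24 lower and 0 higher, where 575 of the 13770 genes it tested fell and 625 rose. In both mice 29 were lower (80.6%, against 29.4% of all genes) and 1 was higher (2.78%, against 29.7%). The median was -0.71, against -0.02 in all genes, with -0.75 and -0.83 in the 2 mice. By role, 5 of 7 transcription factors, 5 of 8 regulators and secreted or surface proteins, 4 of 10 enzymes, 3 of 6 transporter subunits and 3 of 5 tRNA synthetases fell. In 11G+FK 0 of the 36 passed by edgeR, where 1.47% of all genes tested rose and 0.591% fell. At an unadjusted p under 0.05, 6 were lower and 1 higher, where 3165 of all 16087 genes passed in either direction. DESeq2 gave 2 lower, Slc3a2 and Ppp1r15a, where 318 of the 14235 genes it tested fell and 436 rose. In both mice 17 were lower (47.2%, against 31.1% of all genes) and 5 higher (13.9%, against 32.4%). The median was -0.16, against -0.01 in all genes. Its largest values did not pass. Slc3a2 had 336 and 329 CPM in 11G+FK islets, against 475 and 558 CPM in 2G islets, a log2 change of -0.63 ± 0.16 (edgeR adjusted p = 0.0719). Vldlr had 160.5 and 136 CPM in 11G+FK islets, against 115 and 79.0 CPM in 2G islets, a log2 change of 0.62 ± 0.19 (edgeR adjusted p = 0.11). Neither gene overlapped between these groups, and the share of all genes without overlap was not counted. Beside 11G+FK against 2G, 9 of 17 acinar markers fell, as did 1 of 7 ductal (Krt7) and 1 of 7 stellate markers (Acta2), and their part was not tested. Both comparisons share the 2G libraries with the first one.

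The largest decrease in 11G+D relative to 2G was that of Ddit3. It had 142 and 194 CPM in 11G+D islets, against 464 and 586 CPM in 2G islets, which is 3.14-fold lower (log2 change -1.65 ± 0.19, edgeR adjusted p = 0.0037). Chac1 had 30.6 and 47.8 CPM in 11G+D islets, against 94.4 and 109 CPM in 2G islets, which is 2.65-fold lower (-1.40 ± 0.16, edgeR adjusted p = 0.0037). Trib3 had 71.9 and 120 CPM in 11G+D islets, against 192 and 307 CPM in 2G islets, which is 2.61-fold lower (-1.38 ± 0.14, edgeR adjusted p = 0.00292). All 3 kept 2G and 11G+D libraries apart, and the share of all genes that did so was not counted.

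Atf4 passed in this comparison, with 289 and 360 CPM in 11G+D islets, against 508 and 747 CPM in 2G islets, a log2 change of -0.93 ± 0.16 (edgeR adjusted p = 0.0151). Asns did as well, with 151 and 192 CPM in 11G+D islets, against 292 and 302 CPM in 2G islets, a log2 change of -0.80 ± 0.15 (edgeR adjusted p = 0.0221). Phgdh, Shmt2 and Mthfd2, of serine and one-carbon metabolism, fell by 1.08, 0.66 and 0.74 on the log2 scale. The transporter genes Slc3a2, Slc7a1, a carrier of cationic amino acids, and Slc7a5 fell by 0.98, 0.87 and 0.82, and Aars, Nars and Gars fell by 0.84, 0.81 and 0.68. The other genes that fell were Stc2 (-1.38), Ppp1r15a (-1.19), Nupr1 (-1.17), Atf5 (-1.08), Eif4ebp1 (-0.96) and Cebpg (-0.89), which encodes a partner of ATF4.

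Of the 20 calls in 11G+D against 2G, 10 held whichever library was left out, which none did in the comparisons above. The 10 were Ddit3, Chac1, Trib3, Atf5, Cebpg, Nupr1, Eif4ebp1, Ppp1r15a, Slc3a2 and Aars. Calls among all genes became fewer without the library of mouse 2 in either group. With 1 library left out the median of the 36 genes stayed between -0.86 and -0.74. Atf4 did not pass without 2G mouse 2 or without 11G+D mouse 2, and Asns did not without 11G+D mouse 1 or without 2G mouse 2. Without 2G mouse 2 Stc2 was at -0.85 and Phgdh at -0.72, in place of -1.38 and -1.08. Without the mouse block 5 of all 16087 genes rose and 5 fell, and 0 of the 36 genes passed (25 lower and 0 higher at an unadjusted p under 0.05). Beside this comparison 4 of 17 acinar markers and 1 of 7 ductal markers (Krt7) fell and 2 of 8 β cell markers rose (Pdx1 and Slc2a2), and their part was not tested.

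Of the other pathway genes, 5 of 15 further cytosolic tRNA synthetases fell in 11G+D relative to 2G, Eprs (-0.95 ± 0.16), Tars (-0.70 ± 0.14), Yars (-0.66 ± 0.14), Cars (-0.65 ± 0.14) and Mars (-0.59 ± 0.13), and their median was -0.50. Of 17 mitochondrial tRNA synthetases 0 fell and 2 rose, Rars2 (0.93 ± 0.17) and Hars2 (0.75 ± 0.15), with a median of 0.14. Gpt2 (-1.05 ± 0.14), Mthfd1l (-0.84 ± 0.15) and Got1 (-0.68 ± 0.17) fell among 18 further enzymes, and Got1 was at -0.42 and did not pass without 2G mouse 1. Eif2ak2 rose by 0.82 ± 0.16 and Slc38a4 by 1.61 ± 0.22. Of 9 genes on the mTORC1 and autophagy side Sesn3 (-1.02 ± 0.24), Atg3 (-0.94 ± 0.17) and Sqstm1 (-0.93 ± 0.20) fell, and Sesn3 was at -0.66 and did not pass without 2G mouse 1. In 11G+FK relative to 2G the genes past the test on these lists were Sesn3 (-1.33 ± 0.24) and Atg3 (-0.81 ± 0.17).

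**Figure D4:**
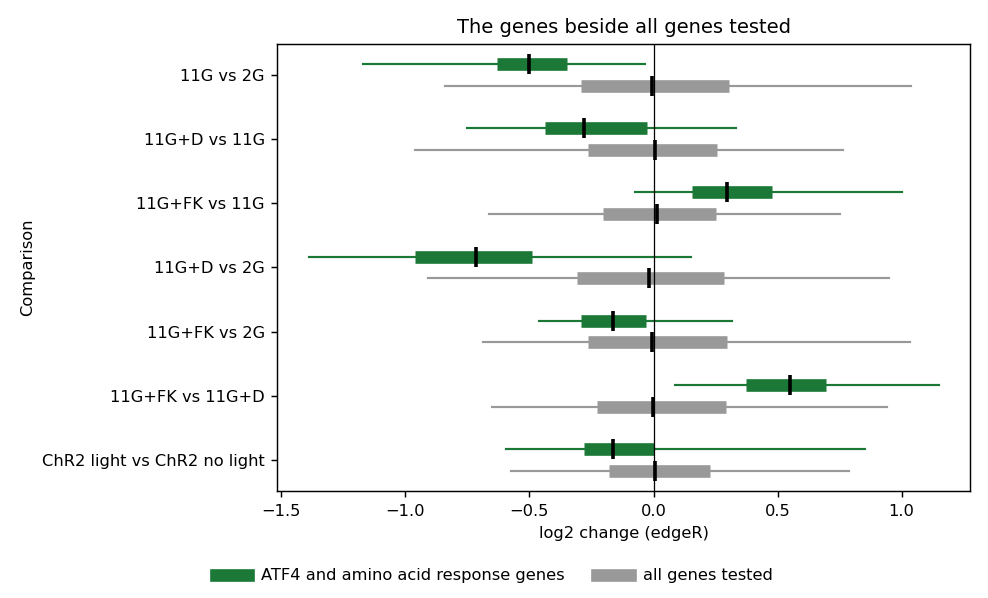
Distribution of log2 changes (horizontal axis) of the ATF4 and amino acid response genes (green) and of all genes tested (grey) in 7 comparisons, with black ticks for medians, bars for the interquartile range and lines from the 5th to the 95th percentile. Medians of all genes lie between -0.02 and 0.01, and those of the ATF4 and amino acid response genes run from -0.71 in 11G+D against 2G to 0.55 in 11G+FK against 11G+D.

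The last comparison set ChR2 islets under light against those without. Under light 1 of the 37 genes rose and 0 fell, where 0.6% of all 15171 genes tested rose and 0.244% fell. At an unadjusted p under 0.05, 4 were higher and 5 lower, where 1693 of all 15171 genes passed in either direction. DESeq2 gave 1 higher and 0 lower, where 58 of the 13139 genes it tested rose and 28 fell. The median was -0.17, against 0.01 in all genes, with -0.16 and -0.11 in the 2 mice. The log2 change was negative in both mice for 19 of 37 (51.4%, against 27.9% of all genes). Summed over the genes, the level was 9126 and 9945 CPM under light, against 9724 and 11635 CPM without light.

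Atf3, a bZIP factor induced by many stresses and also an early gene of stimulated cells, had 67.3 and 149 CPM under light, against 38.2 and 69.1 CPM without light. It was higher in both mice, but the groups overlapped, since mouse 1 under light was below mouse 2 without light. The log2 change was 0.97 ± 0.16 (edgeR adjusted p = 0.00558), with 0.82 and 1.11 in the 2 mice. This fit had 1 residual degree of freedom. Atf3 did not pass with all 12 libraries in 1 fit (0.96, edgeR adjusted p = 0.106), without the mouse block (edgeR adjusted p = 0.998), or in any of the 4 fits of all genotypes that left out a ChR2 library, where it was between 0.80 and 1.10. In wild-type islets Atf3 was at -0.46 ± 0.19 in 11G against 2G, which did not pass.

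Cebpb, a C/EBP factor of acute responses, had 208 and 104 CPM under light, against 117 and 83.7 CPM without light, a log2 change of 0.57 ± 0.16 that did not pass (edgeR adjusted p = 0.132). Slc38a2, a carrier of small neutral amino acids, was at 0.88 ± 0.23 (edgeR adjusted p = 0.0928). Its levels were 222 and 418 CPM under light, against 194 and 141 CPM without light, so that mouse 2 gave 1.57 and mouse 1 gave 0.19. Without either ChR2 library of mouse 1 Slc38a2 was at 1.57 and 1.55, and without either of mouse 2 it was at 0.17 and 0.18. Each of these fits left 1 mouse with both conditions, so the values restate the difference within that mouse. Slc7a11, the cystine carrier, pointed in opposite directions, with 25.1 and 47.5 CPM under light, against 28.1 and 13.1 CPM without light.

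**Figure D5:**
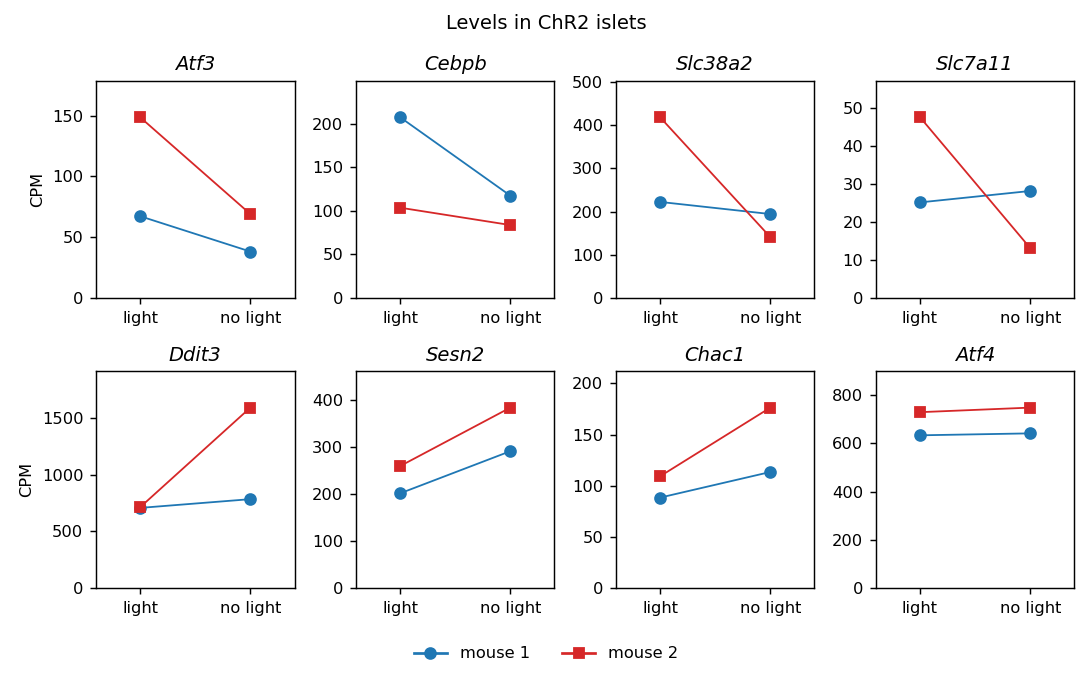
CPM (vertical axes, from 0) of 8 of the genes in ChR2 islets under light and without light, with a line joining the libraries of each mouse (circle, mouse 1; square, mouse 2). Atf3 and Cebpb are higher under light in both mice, Sesn2 and Chac1 lower in both, and the differences of Ddit3, Slc38a2 and Slc7a11 are larger in mouse 2.

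None of the genes called in wild-type islets passed under light. Atf4 had 634 and 730 CPM under light, against 642 and 749 CPM without light, a log2 change of -0.03 ± 0.15. Ddit3 had 707 and 712 CPM under light, against 784 and 1588 CPM without light, and its change of -0.65 ± 0.20 (edgeR adjusted p = 0.171) was -0.15 in mouse 1 and -1.16 in mouse 2. Trib3 had 242 and 276 CPM under light, against 257 and 382 CPM without light (-0.28 ± 0.15). Chac1 had 88.5 and 109 CPM under light, against 114 and 176 CPM without light (-0.53 ± 0.15, edgeR adjusted p = 0.143). Sesn2, a leucine sensor upstream of mTORC1, had 202 and 260 CPM under light, against 292 and 385 CPM without light (-0.55 ± 0.15, edgeR adjusted p = 0.104). Asns had 252 and 289 CPM under light, against 260 and 366 CPM without light (-0.20 ± 0.15). The largest value by size, -1.06 ± 0.61 for Cth, rested on levels of 0.574 and 0.651 CPM under light, against 0.953 and 1.67 CPM without light, and did not pass.

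Of the other pathway genes, Cebpd, another C/EBP factor of acute responses, rose under light, with 468 and 300 CPM, against 315 and 172 CPM without light (log2 change 0.69 ± 0.15, edgeR adjusted p = 0.0368). None of the other genes on the 8 pathway lists passed in this comparison. The summed acinar level was 493 and 113 CPM under light, against 632 and 432 CPM without light, and 3 of 17 acinar markers fell. Of 6 endothelial markers 2 rose under light (Cdh5 and Flt1), with a summed level of 1174 and 1235 CPM, against 850 and 804 CPM without light. Of 8 β cell markers 1 fell (Nkx6-1). The part of these cell types in the result was not tested.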

How the data were processed

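The authors deposited 8 tables, each setting 2 libraries of 1 mouse side by side. Per the file headers they hold raw read counts, FPKM values and the authors' normalized counts (a signal, in which each column was its raw counts times a constant). Neither headers nor labels name an aligner, a counting tool or a genome build. Every mouse's 11G library recurs in 3 tables, with 0 genes differing. Column codes were matched to samples through condition headings and mouse numbers. Raw counts of 24503 genes were joined. The test was the two-sided quasi-likelihood test of edgeR 4.0.16 (R 4.3.3), with TMM scaling, filterByExpr (minimum count 10, minimum total 15) and the mouse as a block, at a Benjamini-Hochberg adjusted p under 0.05 over the genes tested. Wild-type islets (8 libraries, 16087 genes) left 3 residual degrees of freedom and ChR2 islets, fitted apart (4 libraries, 15171 genes), left 1. Biological coefficients of variation were 16.2% in each. Both edgeR fits were also run on simulated counts with known changes. Those counts held no difference between mice, so they could not check the block. Standard errors are the log2 change over the square root of F. Changes per mouse use log2 CPM with a prior count of 1. FPKM values deposited by the authors were used for levels between genes only.

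The labels give the same mouse numbers under each condition, and the deposited tables pair libraries by mouse. Deviations of mouse 1 from the group means correlated between groups at 0.15 to 0.46 in wild-type and 0.50 in ChR2 islets. Islets of 2 mice stand behind every p-value. Alternatives were no block, RLE size factors, no filter, 1 fit of all 12 libraries, a minimum of 10 CPM in 2 libraries, DESeq2 1.42.0 and leaving out each library. Counting depth (15196061 to 22892255 per library) limits the precision of low genes such as Cth and Stc2.

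The genes, the further pathway lists and the marker lists were chosen with earlier results of these data known. Values per library were given for genes past the threshold in 11G against 2G, 11G+D against 11G, 11G+FK against 11G or under light, for Atf4, Ddit3, Trib3, Asns and Chac1, and for the 2 largest changes per comparison. Other genes named were chosen after their values were seen. The results of 1 further pathway gene and 1 marker gene are not reported here. Promoters are RefSeq's on GRCm38.p6, and the RefSeq starts of 31 of 31 genes lay inside the deposited gene or within 1000 bases of it. A start anywhere inside the gene met this rule, so agreement of the starts themselves was not checked. The Nupr1 window, for example, runs from 126625421 to 126625720, inside the deposited gene (126623249 to 126630861).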

Additional observations from a re-analysis of the deposited data

How the results depend on the processing

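Over 10 alternatives per comparison the median log2 change of the genes kept its sign in all 7 comparisons, from -0.57 to -0.48 in 11G against 2G, -0.34 to -0.26 in 11G+D against 11G, 0.27 to 0.31 in 11G+FK against 11G, -0.86 to -0.72 in 11G+D against 2G, -0.23 to -0.06 in 11G+FK against 2G, 0.50 to 0.62 in 11G+FK against 11G+D and -0.18 to -0.12 under light. Counts of genes past the threshold moved more. Without the mouse as a block 0 passed in every comparison, so no call of these genes was kept without it. Among all genes 54 rose and 14 fell in 11G against 2G in those fits, and 9 rose and 50 fell in 11G+D against 11G. In 11G+D against 2G 5 rose and 5 fell, and under light 0 passed. Without a filter 14 of these genes were lower in 11G against 2G, 5 lower in 11G+D against 11G, 4 higher in 11G+FK against 11G, 1 higher and 1 lower in 11G+FK against 2G, 13 higher in 11G+FK against 11G+D, and 4 higher and 2 lower under light. Of all 23992 genes then tested in wild-type islets, 763 were lower, 681 lower, 95 higher, 624 higher and 368 lower, and 405 higher, in that order. Under light 263 of 22074 were higher and 156 lower. DESeq2 gave 18 of these genes lower in 11G against 2G, 6 lower in 11G+D against 11G, 2 higher in 11G+FK against 11G, 2 lower in 11G+FK against 2G and 14 higher in 11G+FK against 11G+D. Its counts over all genes are given above with each comparison. With all 12 libraries in 1 fit 447 of all 16418 genes were lower in 11G against 2G, 4 higher in 11G+FK against 11G and 6 higher under light. Of the ATF4 and amino acid response genes 14 were lower, 1 was higher and 0 were higher in these comparisons. Under light RLE size factors gave 125 of all 15171 genes higher and 2 of the ATF4 and amino acid response genes. Leaving out 1 library gave 0 to 11 lower and 0 to 1 higher in 11G against 2G, 0 to 4 lower in 11G+D against 11G, 13 to 20 lower in 11G+D against 2G, 0 to 8 higher in 11G+FK against 11G+D and 0 to 1 higher under light. Under light those fits held all genotypes. The ChR2 libraries left in them gave no residual degrees of freedom, so their spread was taken from the wild-type islets. The direction of single genes turned in 5 of the values recomputed, none of them past the threshold. Asns in 11G+FK against 11G was at 0.0075 without 11G+FK mouse 2. Ddit3 in 11G+FK against 2G ran from -0.396 to 0.0814 with 1 library left out and was positive without 2G mouse 1 or 11G+FK mouse 1. Slc7a11 under light ran from -0.18 to 1.86 and was negative without either library of mouse 2. Of the others 1341 stayed on their side of the threshold, 84 passed it and 246 no longer did. Wild-type fits without a library have 1 residual degree of freedom fewer than the main fit. That does not hold for the fits of all genotypes used under light. The cause of the shifts was not tested.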
